A study of Mus musculus with 2 samples.

Results

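The miR-297, miR-466, miR-467 and miR-669 families were described in small RNA libraries of mouse embryonic stem cells that lack Dicer. The members were taken by name alone: every entry of the count table named miR-297, miR-466, miR-467 or miR-669, with any letter, copy suffix or arm. This gave 80 of 1907 entries, 6 of miR-297, 31 of miR-466, 13 of miR-467 and 30 of miR-669. The data are 2 libraries of 1 group, called library 1 and library 2 after the numbers in their titles. Both are labelled as Dicer knockout embryonic stem cells of 129/Ola background, cultured with serum and LIF, a cytokine that keeps such cells undifferentiated, and both came from total RNA. The labels give E14 as the developmental stage and end the descriptions of the cells with C1 and H11, without saying whether these are separate clones. A p-value between the libraries therefore asks only whether a difference between these 2 samples, which may be technical, exceeds counting error. It does not measure the spread between replicates. No sample with Dicer was analysed here, so a count shows what was present in the knockout and not what Dicer loss changed.

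A microRNA (miRNA) is a short RNA cut from a hairpin. Drosha frees the hairpin from its host transcript, Dicer cuts off its loop, and the strand from the 5′ side (5p) or from the 3′ side (3p) is loaded into an Argonaute protein, where the seed, bases 2 to 8, pairs with target mRNAs. The 4 families belong to a large rodent miRNA cluster in an intron of Sfmbt2, an imprinted gene of a Polycomb protein that is needed in the placenta. The cluster is built of tandem repeats, is known to be active in embryonic stem cells and trophoblast, and holds many hairpins that are nearly the same in sequence.

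All 80 members matched at least 1 hairpin gene by name in RefSeq's gene table (GRCm38.p6), with 82 hairpins in total. Of these, 72 lay on chromosome 2, plus strand, between 10466663 and 10518279, a stretch of 51.6 kb within Sfmbt2 (10370510 to 10595253, plus strand, GENCODE M21, GRCm38). All 72 fell in intron 10 of the full-length Sfmbt2 transcript, at 10461473 to 10523944, and none overlapped an exon. The intron held 5 hairpins of miR-297, 24 of miR-466, 14 of miR-467 and 29 of miR-669. The 10 hairpins of miR-467a were a median of 2.46 kb apart (2.41 to 4.88 kb), and the 14 of miR-669a and miR-669p a median of 2.45 kb (2.41 to 6.37 kb). The family label thus held for position, with the exception of 10 hairpins on other chromosomes. GENCODE places 47 further miRNA genes inside Sfmbt2, none of which has a numbered miRNA name or an entry in the table.

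**Figure D1:**
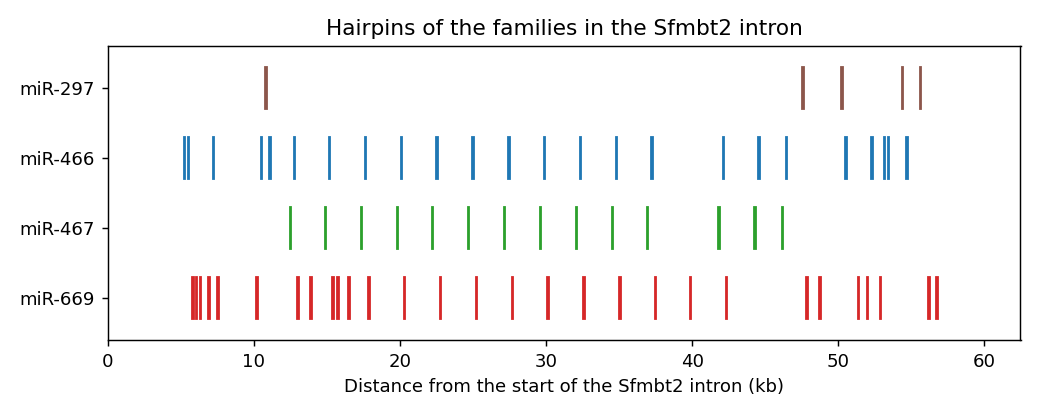
Position of the 72 hairpins of the 4 families in the intron of Sfmbt2; the horizontal axis is the distance from the start of the intron in kb, each bar is 1 hairpin drawn to scale, and each row is 1 family. The miR-466, miR-467 and miR-669 hairpins recur at regular steps of about the same length, while the 5 miR-297 hairpins stand at the flanks.

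The members outside Sfmbt2 gave no counts. Every count of a member came from a name with at least 1 hairpin in the intron. Of 66 entries found only there, 32 had counts, as did 3 of 5 entries with hairpins both there and elsewhere. Of the 9 entries found only elsewhere, 0 had counts. Most entries had none: of all 1907, 1474 were at 0 in both libraries and 433 (22.7%) had a count. Whether the 9 differ from that background was not tested. A count of 0 allows a share of up to 0.00663% of library 1 and 0.00801% of library 2. These 9 were thus not detected, and a share below those limits could not be told from 0 at this depth. RefSeq (GRCm38.p6) gave a mature sequence for 8 of them, which are shown, seed in capitals, because of their repeat character.
miR-466i-3p: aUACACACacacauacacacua
miR-466j: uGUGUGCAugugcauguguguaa
miR-466k: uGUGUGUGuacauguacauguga
miR-466q: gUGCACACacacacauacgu
miR-467f: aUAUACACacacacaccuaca
miR-467g: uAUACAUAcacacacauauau
miR-467h: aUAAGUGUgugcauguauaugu
miR-669n: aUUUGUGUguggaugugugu
All 8 held ACACAC or GUGUGU on the strand shown, against 28 of 1623 entries of the table with a sequence in that source (1.73%), the 8 included. That source gave no sequence for any member in the intron, so those members are absent from the 1623. Whether the repeats are particular to members outside the intron was not tested. The letters searched were chosen after the sequences had been read. The 8 had 8 distinct seeds, so a shared number did not mean a shared seed among them. The mature miR-466k lies at chr3:85467396-85467418 and miR-466q at chr3:28419988-28420007 within Tnik, both on the plus strand. The mature miR-467f lies at chr11:69635419-69635439, minus strand, opposite to Fxr2, and miR-466i-3p at chr13:17747552-17747573, plus strand, opposite to Cdk13. None of the 10 hairpins outside the cluster overlapped an annotated exon.

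Counts were given per mature name and came to 45222 in library 1 and 37476 in library 2. Whether 1 read enters several entries or copies is not given, so these totals may differ from numbers of reads. One count was worth 22.1 CPM, counts scaled to a total of 1000000, in library 1 and 26.7 CPM in library 2. The columns differed beyond counting error (chi-square 2201 on 128 degrees of freedom), so they were treated as 2 libraries. Markers of embryonic stem cells, the entries of miR-290 to miR-295, held 3.62% and 3.24% of the libraries, and 14 of 18 had counts. Of 26 entries marking liver, neuron, muscle, blood, islet or fibroblast, 6 had counts, 26 in library 1 and 18 in library 2. Those of liver, muscle, erythroid cells and islet were at 0, while miR-124, the neuron marker, came to 9 counts in library 1 and was at 0 in library 2. The blood markers miR-142a and miR-223 came to 10 counts in library 1 and 5 in library 2. The fibroblast markers miR-143 and miR-145a came to 7 and 13. Outside the 26 entries, miR-302 and miR-367 came to 4 counts in each library. Since the cells lack Dicer, which cuts miRNA hairpins, marker counts, at 0 or above, depend on more than the cell type. Cell identity was therefore not tested by these markers.

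Together the 4 families had 599 counts in library 1 and 377 in library 2. Their share of library 1 was therefore 1.32%, with a 95% Wilson interval of 1.22 to 1.43. Their share of library 2 was 1.01% (0.910 to 1.11), and the mean share was 1.17% ± 0.225 (SD, n = 2). In bulk RNA, fewer cells that hold a miRNA and less of it per cell cannot be told apart. The miR-669 family was highest, at 0.807% (0.729 to 0.894) in library 1 and 0.510% (0.442 to 0.587) in library 2. The miR-467 family followed, with 0.341% (0.291 to 0.399) and 0.456% (0.393 to 0.530). The miR-466 family held 0.159% (0.126 to 0.200) and 0.0294% (0.0164 to 0.0526), and miR-297 held 0.0177% (0.00896 to 0.0349) and 0.0107% (0.00415 to 0.0274). The order of the families was the same in both libraries, but in library 2 the intervals of miR-669 and miR-467 overlapped, as did those of miR-466 and miR-297. In library 1 no neighbouring intervals overlapped. These intervals cover counting error only, and where 1 read enters several entries or copies they are too narrow.

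**Figure D2:**
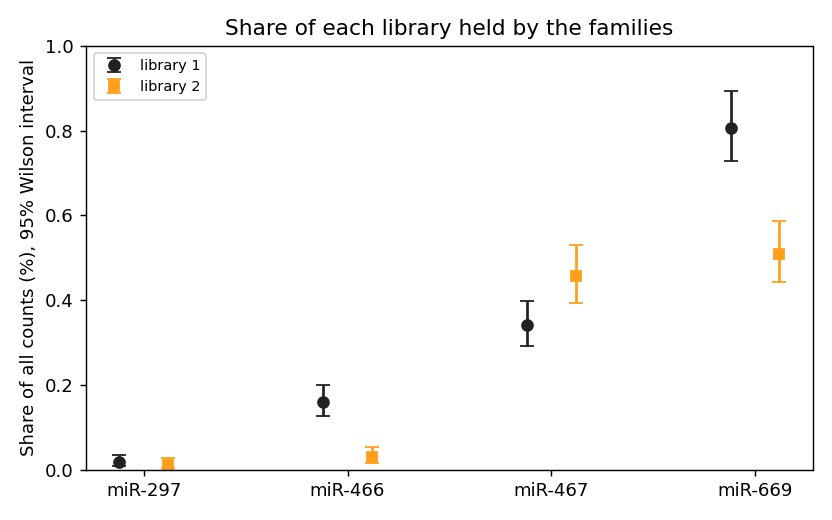
Share of all counts held by each family, in percent, in library 1 (circles) and library 2 (squares), with 95% Wilson intervals. The miR-669 and miR-466 points are higher in library 1 (0.807% and 0.159%) and the miR-467 point is higher in library 2 (0.456%).

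Deposited counts sat in few members. Of the 80, 35 had a count in at least 1 library (43.8%), against 433 of 1907 entries (22.7%) in the whole table. Of these 35, 20 fell into 7 groups of the same family and arm with equal counts per hairpin. Whether they share reads was not tested, so the 35 may not be separate observations. Of the members, 21 had a count in both libraries and 45 had none. At a minimum of 10 counts in each library, 4 members were detected (5% of 80), close to the background of 4.20% of the whole table. These 4, miR-669a-5p, miR-467a-3p, miR-467a-5p and miR-669p-5p, held 78.5% of the members' counts in library 1 and 82.8% in library 2. In the same order, these names have 12, 10, 10 and 2 hairpins. Divided by those numbers, their counts were 25, 6, 6 and 25 in library 1 and 13, 8, 5 and 13 in library 2. On that basis 2 members reached 10 counts in both libraries. The 26 members with 1 to 9 counts in both libraries together had 63 counts in library 1 and 30 in library 2, and none of them exceeded 8 in a library.

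**Figure D3:**
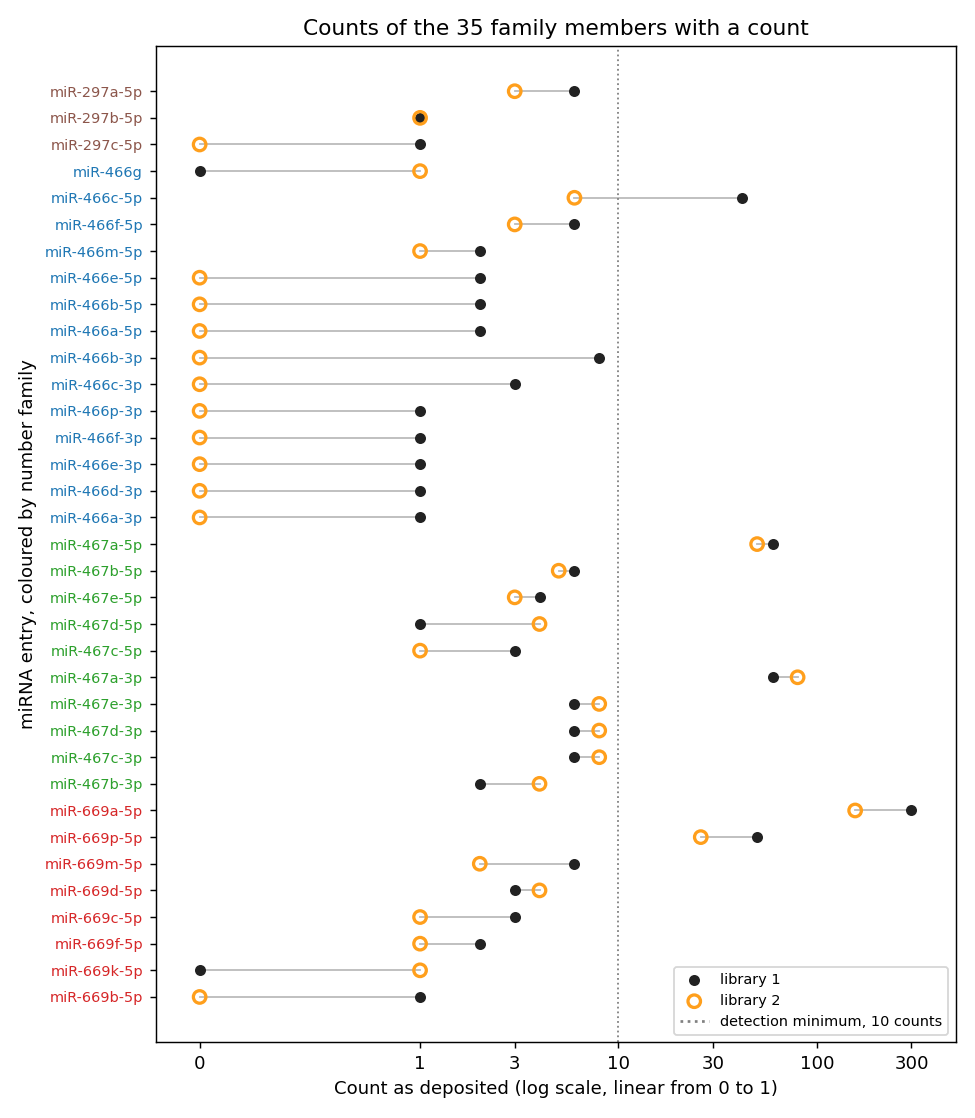
Deposited count of each of the 35 members with a count, in library 1 (filled points) and library 2 (open points), on a log scale that is linear from 0 to 1; names are coloured by family. Of the 35, 4 members reach the dotted minimum of 10 counts in both libraries, and 10 of 14 miR-466 members have counts in library 1 only, against 89 of 433 entries (20.6%) in the whole table. Of these 10, 6 are 3p members with equal counts per hairpin, and whether they share reads was not tested.

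The miR-669 family came from the 5p arm without exception. The member miR-669a-5p, whose 12 hairpins include Mir669a-1 at 10476853 to 10476949 and Mir669a-12 at 10503791 to 10503877 on chromosome 2, was counted 300 times in library 1 and 156 times in library 2. That was 6634 and 4163 CPM, or 50.1% and 41.4% of the members' counts. The member miR-669p-5p, from Mir669p-1 (10489116 to 10489202) and Mir669p-2 (10496497 to 10496583), had 50 and 26 counts, or 1106 and 694 CPM. Both were higher in library 1, by the same ratio of 1.59. The 6 other miR-669 members with counts were all 5p arms as well.

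The miR-467 family was the one with counts on both arms of each lettered hairpin from a to e. The member miR-467a-3p was counted 60 times in library 1 and 80 times in library 2, or 1327 and 2135 CPM. Its partner miR-467a-5p had 60 and 50 counts, or 1327 and 1334 CPM, so that the arms were level in library 1 and the 3p arm was higher in library 2. The 10 hairpins of miR-467a run from Mir467a-1 at 10476346 to 10476418 to Mir467a-10 at 10503273 to 10503355. The member miR-467b-5p, from Mir467b at 10481248 to 10481320, had 6 and 5 counts. The members miR-467c-3p, miR-467d-3p and miR-467e-3p had 6 counts in library 1 and 8 in library 2 each, the same pair of values in all 3. The members miR-467f, miR-467g and miR-467h, which lie outside the intron, had no counts.

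In the miR-466 family 1 member held most of the counts and the others had few. That member, miR-466c-5p, was counted 42 times in library 1 and 6 times in library 2 (929 and 160 CPM). It comes from Mir466c-1 (10481534 to 10481617), Mir466c-2 (10483966 to 10484055) and another hairpin at 10491336 to 10491425. The rest of the family came to 30 counts against 5, or 0.0663% (0.0465 to 0.0947) and 0.0133% (0.00570 to 0.0312). Of the 14 miR-466 members with a count, 10 had counts in library 1 only (71.4%), 1 in library 2 only (7.14%) and 3 in both. Of all 433 entries with a count, 89 (20.6%) had them in library 1 only, 86 (19.9%) in library 2 only and 258 in both. Of the 10 miR-466 members, 6 were 3p members with 1 and 0 counts per hairpin, and 2 were 5p members with 2 and 0. Whether these share reads was not tested, so the 10 may not be separate observations and the 71.4% may rest on few reads. The miR-297 family had 8 counts in library 1 and 4 in library 2, all on the 5p arm, and its highest member, miR-297a-5p, had 6 and 3.

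Of the 4 families, miR-467 stood apart in the use of the arms in deposited counts. Over all members with an arm in the name, the 5p arm held 84.0% of counts in library 1 (80.8 to 86.7) and 71.3% in library 2 (66.5 to 75.6). Over the other arm-named entries of the table it held 82.4% (81.7 to 83.1) and 77.5% (76.5 to 78.4), so the intervals overlapped in library 1 and not in library 2. Of the 9211 5p counts of these other entries in library 1, miR-182-5p held 3539, miR-183-5p 1573 and miR-21a-5p 1137. In library 2 they held 2137, 897 and 537 of 5823. The level of the other entries thus rests largely on these miRNAs and does not give a typical arm use. Within the families, miR-669 had 365 of 365 counts on the 5p arm in library 1 and 191 of 191 in library 2. Its 14 3p entries had none, which allows a 3p share of up to 0.822% and 1.57%. The miR-467 family had 48.1% on the 5p arm in library 1 (40.3 to 55.9) and 36.8% in library 2 (29.98 to 44.3), and neither interval reached that of any other family in that library. In library 1 the distance to miR-466 rested on miR-466c: without it the 5p share of miR-466 was 51.9%, inside the miR-467 interval. The 5p share of miR-467a alone was 50% and 38.5%, and that of the remaining miR-467 members 41.2% (26.4 to 57.8) and 31.7% (19.6 to 47.0). The 3p arms of miR-467a, miR-467c, miR-467d and miR-467e were equal per hairpin, at 6 and 8 counts. They held 78 of the 80 3p counts of miR-467 in library 1 and 104 of 108 in library 2. Whether they share reads was not tested. Where 1 read enters several entries, the intervals here are too narrow and the 5p share of miR-467 can change. The miR-466 family had 56 counts on 5p and 16 on 3p in library 1, and 10 on 5p and 0 on 3p in library 2. The latter allows a 3p share of up to 30%, so a loss of the 3p arm there was not detectable.

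**Figure D4:**
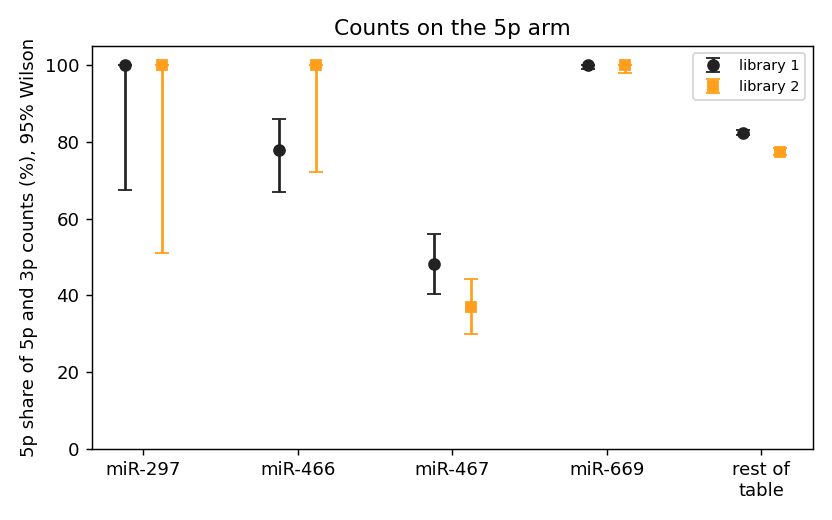
Share of 5p among 5p and 3p counts, in percent with 95% Wilson intervals, for each family and for all other entries of the table, in library 1 (circles) and library 2 (squares). The miR-669 points stand at 100% in both libraries, the miR-467 points at 48.1% and 36.8%, and the other entries at 82.4% and 77.5%. The 5p counts of the other entries lie mostly in miR-182-5p, miR-183-5p and miR-21a-5p.

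Many counts of members with several hairpins were whole multiples of the number of hairpins. This was noticed in the values, and the entries named for it were chosen after they were seen. Of 13 members with a count and several hairpins, 8 (61.5%) had exact multiples of all their hairpins in both libraries. That share was near the 64% (16 of 25) of other entries of the table with several hairpins and a count, so the tally alone does not set the members apart. Of the other entries, 22 of the 25 had only 2 hairpins. Counting only hairpins in the intron, 10 of the 13 members had multiples. Among entries with at least 10 counts over both libraries, 5 of 5 members and 5 of 10 others had multiples of all their hairpins. Divided by its 12 hairpins, miR-669a-5p came to 25 counts in library 1 and 13 in library 2, and miR-669p-5p, divided by its 2, came to 25 and 13 too. Divided by 10, miR-467a-3p came to 6 and 8, the values of miR-467c-3p, miR-467d-3p and miR-467e-3p, which have 1 hairpin each. Divided by 10, miR-467a-5p came to 6 and 5, the values of miR-467b-5p.

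Some low counts in miR-466 showed the same pattern. The member miR-466b-3p, with 8 hairpins, had 8 and 0 counts, and miR-466c-3p, with 3, had 3 and 0. The 3p members of miR-466a, miR-466d, miR-466e and miR-466p, with 1 hairpin each, had 1 and 0. Likewise miR-466f-5p had 6 and 3 counts over 3 hairpins, and miR-466m-5p had 2 and 1 from a single hairpin. The member miR-466c-5p came to 14 and 2 per hairpin, a value no other member shared. The 3 that were multiples on neither basis were miR-466b-5p (2 and 0 counts, 8 hairpins), miR-466f-3p (1 and 0 counts, 3 hairpins) and miR-669d-5p (3 and 4 counts, 2 hairpins). For miR-297a-5p and miR-466f-5p the multiple holds for the 3 hairpins in the intron and not for all 4.

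In total 20 members fell into 7 groups of the same family and arm with equal counts per hairpin, and they held 88.5% of the members' counts in library 1 and 92.3% in library 2. Equal pairs of counts also occur without relation: miR-182-3p, the arm of a hairpin on another chromosome, had 50 and 26 counts like miR-669p-5p. Of 129 entries with at least 10 counts in both libraries together, 15 shared their pair of counts with another. These were 4 of the 9 members tested and 11 other entries. Of the 4 members, miR-669p-5p shared its pair only with miR-182-3p. The table holds no reads, so whether these members share reads was not tested.

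**Figure D5:**
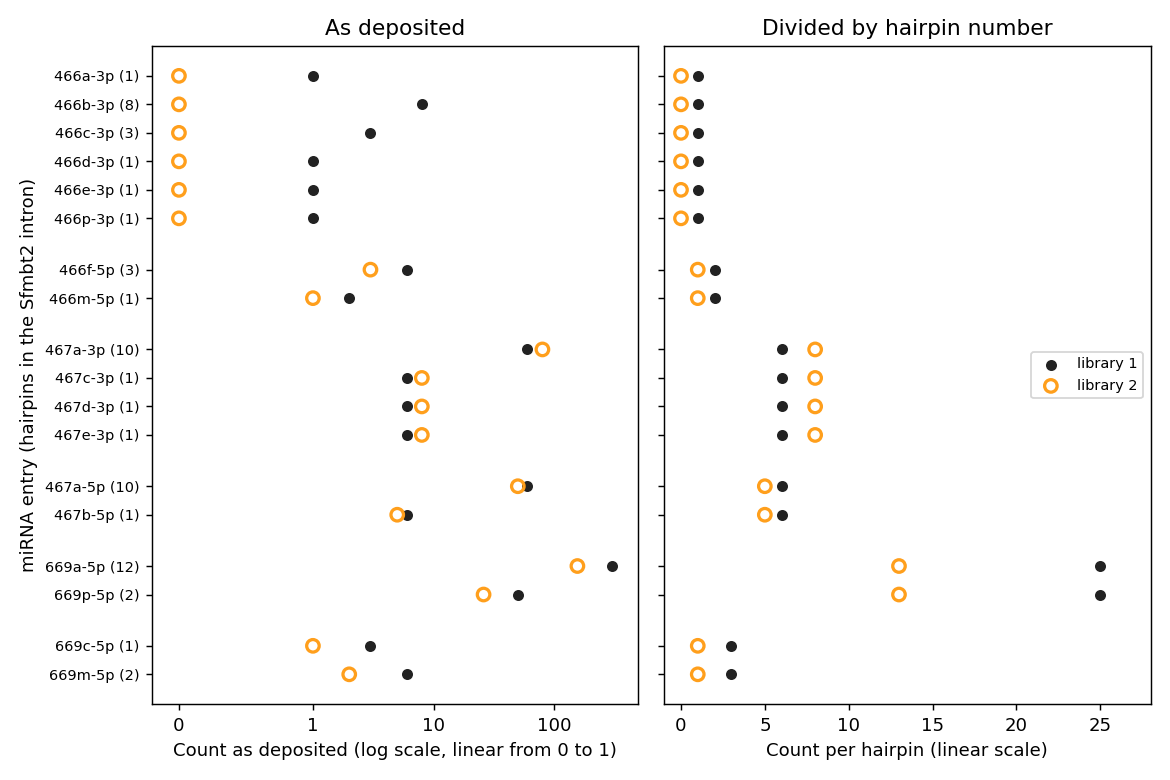
Counts of 18 members in 6 groups, as deposited on the left (log scale, linear from 0 to 1) and divided by the number of hairpins in the intron on the right (linear scale); that number stands in parentheses, filled points are library 1 and open points library 2. Within each group the values coincide after division, at 25 and 13 for miR-669a-5p and miR-669p-5p and at 6 and 8 for the miR-467 3p arms.

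Per hairpin, the order of the families changed. The sum of counts per hairpin over all members was 139.1 in library 1 and 93 in library 2. The miR-467 family held 33.1% of this sum in library 1 and 58.1% in library 2, and miR-669 held 43.5% and 34.4%. In deposited counts miR-467 had been 25.7% and 45.4% of the members' total and miR-669 60.9% and 50.7%. Thus miR-669 was the higher of these families in both libraries as deposited, and in library 1 only per hairpin. When each group of equal values was taken as 1, the sums were 78.1 and 49.

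The libraries were compared entry by entry over the whole table, with Fisher's exact test (two-sided) and Benjamini-Hochberg adjustment over 129 entries. Of 9 members tested, 1 passed an adjusted p of 0.05 with a 2-fold difference (11.1%), against a background of 7.75% of all tested entries. That member was miR-466c-5p, 5.80-fold higher in library 1 (exact 95% interval 2.45 to 16.7, with 42 against 6 counts; adjusted p = 1.95e-05, Fisher's exact test). Its interval covers counting error only; whether its 3 hairpins share reads was not tested. With counts per hairpin, 14 against 2, the ratio was 5.82 (1.34 to 52.7) and the call was lost (adjusted p = 0.0554, Fisher's exact test).

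Without the fold minimum, 3 of 9 members passed the adjusted threshold (33.3%), against a background of 19.4%. The other 2 were miR-669a-5p, 1.59-fold higher in library 1 (1.31 to 1.95; adjusted p = 1.95e-05, Fisher's exact test), and miR-467a-3p, with a ratio of library 1 to library 2 of 0.622 (0.437 to 0.880; adjusted p = 0.0327, Fisher's exact test). The members with the same ratios and fewer hairpins did not pass: miR-669p-5p had an adjusted p of 0.219 and the 3p arms of miR-467c, miR-467d and miR-467e one of 0.699 (Fisher's exact test). Per hairpin, the adjusted p was 0.489 for miR-669a-5p and 0.691 for miR-467a-3p (Fisher's exact test), and 0 of 9 members passed, with 1 at an unadjusted p below 0.05. The arms miR-467a-5p and miR-467b-5p had ratios of 0.994, with intervals of 0.672 to 1.48 and 0.253 to 4.12. The median log2 ratio of library 2 over library 1 was 0.01 over the 9 members and -0.05 over all 129 entries. All these differences rest on a single library per side and were not checked in further replicates.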

How the data were processed

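Per the labels' protocols, the libraries come from Illumina's TruSeq kit for small RNA. The authors deposited whole-number counts per mature miRNA name, not normalized. The tools cutadapt, STAR and featureCounts and the build mm10 are given by the submitters' processing notes, without version or settings; the handling of reads that match several hairpins is not given in the sources used here. No molecular identifiers are mentioned, so intervals cover counting error only. Depth was 45222 and 37476 counts.

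Members, lists and tests were chosen with earlier results of these data known. Named members were those reaching 10 counts over both libraries, then the highest of each family and arm with a count in both. Because 1 library stood on each side, Fisher's exact test replaced a model with replicates. It was tested on simulated counts, drawn independently for each entry. Those hold neither the spread between these libraries beyond counting error nor reads entered more than once, so they do not check the calls here. A count of 0 was read as up to 3 counts, and Wilson or exact intervals are at 95%. Hairpins were matched by name to RefSeq symbols and synonyms (GRCm38.p6), with miR-466a taken as Mir466, and to GENCODE M21 for introns and exons. Dividing by hairpin number, with whole numbers for the test, was added after seeing the data. Python 3.11.15, pandas 2.3.3, scipy 1.17.1, matplotlib 3.10.9, R 4.3.3 and edgeR 4.0.16 (TMM factors only) were used.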

Additional observations from a re-analysis of the deposited data

How the results depend on the processing

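The mean share of all members, 1.17%, was 1.65% of the total without the most abundant entry, 4.998% of the total over miRNAs numbered 1000 or below, 0.936% over members with 10 counts in both libraries and 0.280% with counts per hairpin. In the same order of settings, miR-467 went from 0.398% to 0.557%, 1.76%, 0.306% and 0.124%. Under the first and second of these settings miR-669 went from 0.658% to 0.938% and 2.80%, and per hairpin to 0.111%. The miR-297 share went from 0.0142% to 0.0202%, 0.0601%, 0% and 0.00716%. The miR-466 share, 0.0943%, moved to 0.380% of miRNAs numbered 1000 or below and to 0% over members with 10 counts in both. The smaller denominators raise a share, and the stricter lists lower it, by construction. Keeping only members with a hairpin in Sfmbt2 changed no share. The mean 5p shares of all members, miR-466 and miR-467 moved by less than 1 SD, but without miR-466c, its most abundant hairpin, that of miR-466 in library 1 fell from 77.8% to 51.9%. Those of miR-297 and miR-669, with no 3p counts, could not move. The 4 members detected in both libraries became 13 at 3 counts and 2 per hairpin. The 1 member called became 3 without a fold minimum and 0 per hairpin, and stayed 1 under TMM, both other totals and no count filter. Of 45 values for single members, 44 kept direction and call, 1 (miR-466c-5p per hairpin, log2 ratio -2.54) lost its call and 0 reversed. Under the alternatives as planned, the adjusted p of miR-466c-5p lay between 3.21e-05 and 0.000489 (Fisher's exact test). The adjusted p of miR-669a-5p missed 0.05 with only miRNAs numbered up to 1000 as the scale (0.0506) and that of miR-467a-3p without a count filter (0.106), both by Fisher's exact test. Leaving out either library moved no mean by more than 1 SD, which 2 values fix. As a ratio the share of miR-466 changed most, from 0.0294% without library 1 to 0.159% without library 2. Summing members by shared seed was not run, since sequences were at hand for 8 members only. No paired analysis was possible because both libraries belong to 1 group.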
